A study of Mus musculus with 9 samples.

Results

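The transcripts described here belong to 54 genes that drive or restrain cell division, among the 55401 genes counted in each library: cyclins and their kinases, replication factors, E2F and other transcription factors, mitotic kinases, spindle genes and cell cycle brakes. They were matched by gene symbol, all 54 were found, and all 54 had enough reads to be tested. The libraries were made from polyadenylated RNA of G1C7 and of G2C9, both labelled TIM-3 knockout, and of Gcontrol, the NP53 cells from which both derive, labelled WT. NP53 is a mouse cell line of diffuse midline glioma (DMG), a childhood tumour of the brainstem and midline. All cells were grown with 10% FBS, and each of the 3 groups had 3 libraries. The series asks how the derivatives differ from NP53 in gene expression. Each knockout group is 1 named derivative, so what the knockout does and what sets that derivative apart cannot be told apart. The labels do not say whether the 3 libraries of a group came from separate cultures. Test results therefore measure only the spread between these libraries.

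As background, a cell commits to division in G1, when cyclin D with CDK4 or CDK6 and then cyclin E with CDK2 phosphorylate RB1 and release E2F factors, which switch on the genes of DNA replication. A later wave of genes, driven by B-MYB (encoded by Mybl2) and FOXM1, supplies the kinases, motors and checkpoint proteins of mitosis. Cell cycle transcripts are high in dividing cells and low in resting ones. In bulk RNA, a smaller share of dividing cells and less transcript per cell cannot be told apart.

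The libraries held between 50110129 and 56035382 reads in genes, and depth did not limit the members: the least read of them per length in Gcontrol, Rb1, still had between 790 and 1757 reads. Values are CPM (read counts relative to library size, scaled with TMM factors) in the order of replicates 1, 2 and 3. E2f2, the least read member per length in G2C9, stood at 14.3 CPM or above in every library. Havcr2, the gene of TIM-3, had 55, 6 and 66 reads in G1C7, 39, 30 and 28 in G2C9, and 74, 58 and 60 in Gcontrol, and neither derivative passed the test against Gcontrol (adjusted p = 0.586 and 0.448). The edited bases are not given in the sources used here, so these reads do not check the knockout. Of 9 glial precursor and neural stem markers, Pdgfra, Nes, Sox2 and Vim were read in every library. Olig1 and Olig2, which define oligodendrocyte precursors, were at 0 reads in all 9, Sox10 was at or near 0, and the astrocyte gene Gfap stayed at or below 0.333 CPM. Cspg4 was far lower in the derivatives than in Gcontrol, at 1.53, 0.91 and 1.46 CPM in G1C7 and 4.0, 3.39 and 5.41 CPM in G2C9. Its log2 difference from Gcontrol was -4.77 in G1C7 replicates 1 and 3 and -5.43 in G1C7 replicate 2. In G2C9 it was -3.52 in replicates 1 and 2 and -2.98 in replicate 3. The labelled cell type therefore rests on some of its markers only.

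In 2 libraries, G1C7 replicate 2 and G2C9 replicate 3, most cell cycle transcripts were lower than in the other libraries of their group. In G1C7 replicate 2, 41 of the 54 members lay at least 20% below both other G1C7 libraries, and 26.1% of all tested genes did so. Only Rb1 and Cdkn1b lay at least 25% above both, which is the same distance on a ratio scale, as did 30.3% of all tested genes. In G2C9 replicate 3, 35 members lay at least 20% below both other libraries of the group, against 19.0% of all genes, and Cdkn1b alone lay above both, against 26.3%. The same 33 members were lower in both libraries. The share of all tested genes lower in both was not computed. Across all tested genes the differences in these libraries had a Pearson r of 0.715. These are single libraries and were not tested; the limit was chosen after the data were seen. The median member differed from the mean of the other libraries of its group by -0.49 on the log2(CPM + 0.1) scale in G1C7 replicate 2 and by -0.40 in G2C9 replicate 3, and the median of all genes by 0.02 in each. The members held 0.811% and 0.907% of reads in these libraries, and between 1.07% and 1.21% in the other 7.

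In G1C7 replicate 2, some cyclins of G1 and S phase and replication genes were among the members with the largest differences. In G2C9 replicate 3 the median difference was -0.61 for transcription factors, -0.54 for kinesins and kinetochore and -0.53 for D-type cyclins and their kinases. It was -0.48 for the 2 proliferation markers and -0.45 for replication licensing. Cyclin E2 (Ccne2), which activates CDK2 at the start of S phase, stood at 68.5, 22.2 and 67.6 CPM in G1C7, 71.4, 78.7 and 40.3 CPM in G2C9, and 63.2, 75.4 and 58.5 CPM in Gcontrol. The log2 difference was -1.61 in G1C7 replicate 2 and -0.89 in G2C9 replicate 3. Cyclin D1 (Ccnd1), the partner of CDK4 and CDK6 that responds to growth factors, stood at 509, 172 and 500.3 CPM in G1C7, 345, 350.5 and 144 CPM in G2C9, and 351, 347 and 363 CPM in Gcontrol. In G1C7 replicate 2 and G2C9 replicate 3 it was below all the other 7 libraries. Next by size of the difference in G1C7 replicate 2 came Rrm2 (the regulated subunit of ribonucleotide reductase, -1.38 in G1C7 replicate 2 and -0.65 in G2C9 replicate 3), Mybl2 (-1.31 in G1C7 replicate 2 and -0.84 in G2C9 replicate 3), Mcm5 (a subunit of the replicative helicase, -1.19 in G1C7 replicate 2 and -0.70 in G2C9 replicate 3) and Cdc6 (a loader of that helicase, -1.16 in G1C7 replicate 2 and -0.70 in G2C9 replicate 3). All 8 replication licensing members were at least 20% below both others in G1C7 replicate 2, and 5 of 8 were in G2C9 replicate 3.

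Not every mitotic transcript moved with them. Cyclin B2 (Ccnb2) differed by 0.13 in G1C7 replicate 2 and 0.03 in G2C9 replicate 3, the mitotic kinase Aurkb by 0.08 in G1C7 replicate 2 and -0.12 in G2C9 replicate 3, and the spindle checkpoint kinase Bub1b by -0.02 in G1C7 replicate 2 and -0.24 in G2C9 replicate 3. Myc, a transcription factor of growth and proliferation, differed by 0.27 in G1C7 replicate 2 and -0.06 in G2C9 replicate 3, and thymidylate synthase (Tyms) by -0.41 in G1C7 replicate 2 and 0.13 in G2C9 replicate 3. The retinoblastoma gene Rb1 differed by 0.72 in G1C7 replicate 2 and 0.30 in G2C9 replicate 3, and Cdkn1b, which encodes the CDK inhibitor p27, by 0.67 in G1C7 replicate 2 and 0.34 in G2C9 replicate 3. By phase, the 21 members grouped as G1/S genes had a median difference of -0.76 in G1C7 replicate 2 and -0.40 in G2C9 replicate 3. The 23 grouped as G2/M genes had medians of -0.45 and -0.42, and the 10 of G1 entry and the brakes -0.34 and -0.19. Across the 54 members the log2 differences in both libraries had a Pearson r of 0.828 and a Spearman rho of 0.722, against 0.715 and 0.693 across all tested genes. Genes are not independent replicates and no p is given.

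**Figure D1:**
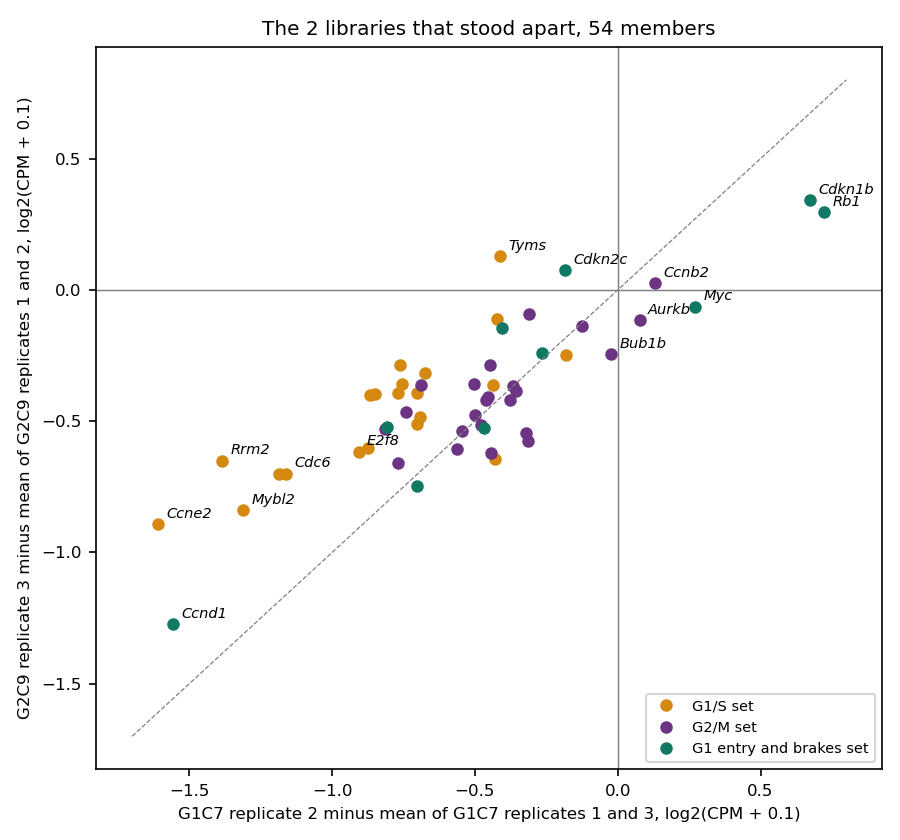
Each point is 1 of the 54 members. The horizontal axis gives the log2(CPM + 0.1) difference of G1C7 replicate 2 from the mean of G1C7 replicates 1 and 3, and the vertical axis that of G2C9 replicate 3 from G2C9 replicates 1 and 2; the dashed line marks equal differences. Most members lie below 0 on both axes, Ccne2 and Ccnd1 lie lowest, and Rb1 and Cdkn1b lie above 0 on both.

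Other transcripts moved in the same libraries. Earlier results had picked a list of 7 inflammatory genes from these samples: Hp, Lcn2, Saa3, Il6, Cxcl1, C3 and Ccl2. In G1C7 replicate 2, Cxcl1 stood at 2434 CPM and C3 at 1220 CPM. Ccl2 was at 148 CPM in that library, below the other G1C7 libraries (162 and 171 CPM). The list summed to 4987 CPM in G1C7 replicate 2, 11380 in G2C9 replicate 3 and between 1186 and 2727 in the other 7 libraries. A list of 5 fibroblast markers, most of it from Col1a1, Col1a2 and Dcn, summed to 7317 and 7545 CPM there, to between 2864 and 3499 in the other derivative libraries and to between 5218 and 5490 in Gcontrol. On the same list Lum stayed at or below 0.273 CPM. Pdgfrb stood at 216 CPM in G1C7 replicate 2, against 324 and 305 CPM in the other G1C7 libraries, and at 335 CPM in G2C9 replicate 3, against 328 and 316 CPM in the other G2C9 libraries. Of 7 immune markers, Cd3e was at 0 reads in all 9 libraries, Ptprc had at most 4 reads, and the sum lay between 0.543 and 6.07 CPM, highest in G2C9 replicate 3 through Lyz2. Mitochondrial genes held between 1.39% and 1.94% of reads. No date, culture or batch in the labels sets the 2 libraries apart, and the part of any of these measures in the low cell cycle transcripts was not tested.

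Promoter letters of the G1/S and G2/M members, which use no expression value, held different words. E2F factors bind words such as TTTCCCGC, TTTCGCGC, TTTGCCGC and TTTGGCGC, and mitotic promoters carry the cell cycle homology region (CHR, TTTGAA), bound by the MuvB complex that recruits B-MYB and FOXM1, often beside CCAAT boxes bound by NF-Y. RefSeq windows of 250 bases before to 50 after the start (GRCm38.p6) were searched on both strands and matched 43 of 54 members. An E2F word stood in 9 of 19 matched G1/S members, in 1 of 18 G2/M members and in 2.61% of all 27025 genes with a window. CHR stood in 3 of 19 G1/S members, in 13 of 18 G2/M members and in 20.2% of all genes. CCAAT stood in 12 of 19, in 16 of 18 and in 41.1%. A match is a description of these letters, not of binding. The 120 bases before the start of 2 members with an E2F word there, Mcm6 and Cdc25a, and of 2 with CHR, Cdc20 and Cdk1, show the contrast. They lie at chr1:128359706-128359825 on the minus strand for Mcm6, chr9:109875459-109875578 on the plus strand for Cdc25a, chr4:118437344-118437463 on the minus strand for Cdc20 and chr10:69352913-69353032 on the minus strand for Cdk1. Capitals mark E2F, CHR and CCAAT words on either strand; in Mcm6 a pair of E2F words on opposite strands overlaps at the left.
Mcm6: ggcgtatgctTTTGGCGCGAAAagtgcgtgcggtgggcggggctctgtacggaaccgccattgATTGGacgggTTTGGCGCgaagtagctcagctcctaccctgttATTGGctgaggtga
Cdc25a: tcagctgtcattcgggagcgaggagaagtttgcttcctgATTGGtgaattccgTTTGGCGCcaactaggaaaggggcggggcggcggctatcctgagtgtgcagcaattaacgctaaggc
Cdc20: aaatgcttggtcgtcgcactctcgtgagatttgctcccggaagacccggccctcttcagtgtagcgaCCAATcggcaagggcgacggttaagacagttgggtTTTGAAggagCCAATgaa
Cdk1: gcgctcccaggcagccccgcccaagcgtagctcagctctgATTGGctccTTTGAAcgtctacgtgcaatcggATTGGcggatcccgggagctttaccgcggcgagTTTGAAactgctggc
Cdk1 also held an E2F word elsewhere in its window, and it was the 1 of 18 matched G2/M members that did. In G1C7 replicate 2 the log2 difference was -0.70 for Mcm6, -0.87 for Cdc25a, -0.74 for Cdc20 and -0.31 for Cdk1. In G2C9 replicate 3 it was -0.51, -0.40, -0.46 and -0.09 in the same order. The 11 members with an E2F word had a median difference of -0.68 in G1C7 replicate 2 and -0.40 in G2C9 replicate 3. The 32 matched members without one had -0.47 and -0.42. The 16 with CHR had -0.41 and -0.42, and the 27 without it -0.69 and -0.40. Cdk1 and E2f2 held both words, and Rrm2 and Mybl2 held neither. The part of these words in the differences was not tested.

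Against Gcontrol, few members passed the test when all 9 libraries were used. In G1C7, cyclin D2 (Ccnd2) and E2f2 rose and the mitotic motor Cenpe fell. In G2C9, Ccnd2 and Tyms rose, and Myc and Aurkb fell. These were 2 higher and 1 lower of 54 in G1C7, where 8.77% of all 15659 tested genes were called higher and 8.73% lower. They were 2 higher and 2 lower of 54 in G2C9, where 6.25% and 7.22% were called. Calls rest on edgeR's quasi-likelihood test, with p-values adjusted over all tested genes after Benjamini and Hochberg and a threshold of 0.05. The median member changed by 0.01 on the log2 scale in G1C7 and by 0.07 in G2C9, and the median of all genes by 0.02 and 0.01. In 17 members the G1C7 and Gcontrol libraries did not overlap (43.0% of all genes), and in 17 the G2C9 and Gcontrol libraries did not (43.3%). DESeq2 called 4 higher and 4 lower in G1C7, and 4 higher and 3 lower in G2C9. Over all 15659 genes it called 1906 higher and 1956 lower in G1C7, and 1515 and 1675 in G2C9. Leaving out single libraries moved the edgeR counts, those of all genes included. Without G1C7 replicate 2 there were 8 higher and 3 lower in G1C7 and 9 higher and 4 lower in G2C9. Of all 16049 genes then tested, 4133 and 4113 were called. Without G2C9 replicate 3 there were 2 lower in G1C7 and 4 higher in G2C9, with 3348 and 2334 of 16031 genes called. Without Gcontrol replicate 1 none was lower in G1C7, where 1181 of 16133 genes were called. None was lower in G2C9 without any one of the 8 libraries other than G1C7 replicate 2. Without replicate 1 or 2 of G2C9 or any 1 Gcontrol library, 1 was higher in G2C9. In those fits between 878 and 1185 of all genes were called in G2C9. Both derivatives were compared with the same 3 Gcontrol libraries, so the values of the comparisons are not independent and are only set side by side.

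Without G1C7 replicate 2 and G2C9 replicate 3, many more members differed from Gcontrol, most of them upward. In that fit of 7 libraries, 32 members were called higher and 9 lower in G1C7, where 26.4% of 15808 tested genes were called higher and 27.9% lower. In G2C9, 31 were called higher and 7 lower, against 25.4% and 27.6% of all genes. The median member stood at 0.17 in G1C7 and 0.19 in G2C9, and the median of all genes at -0.01 in both. Each derivative then has 2 libraries, and the pair was left out because it was known to stand apart, so these calls describe the 7 libraries. Where members are described below, changes are log2 fold changes ± SE against Gcontrol from all 9 libraries unless the 7 libraries are named.

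**Figure D2:**
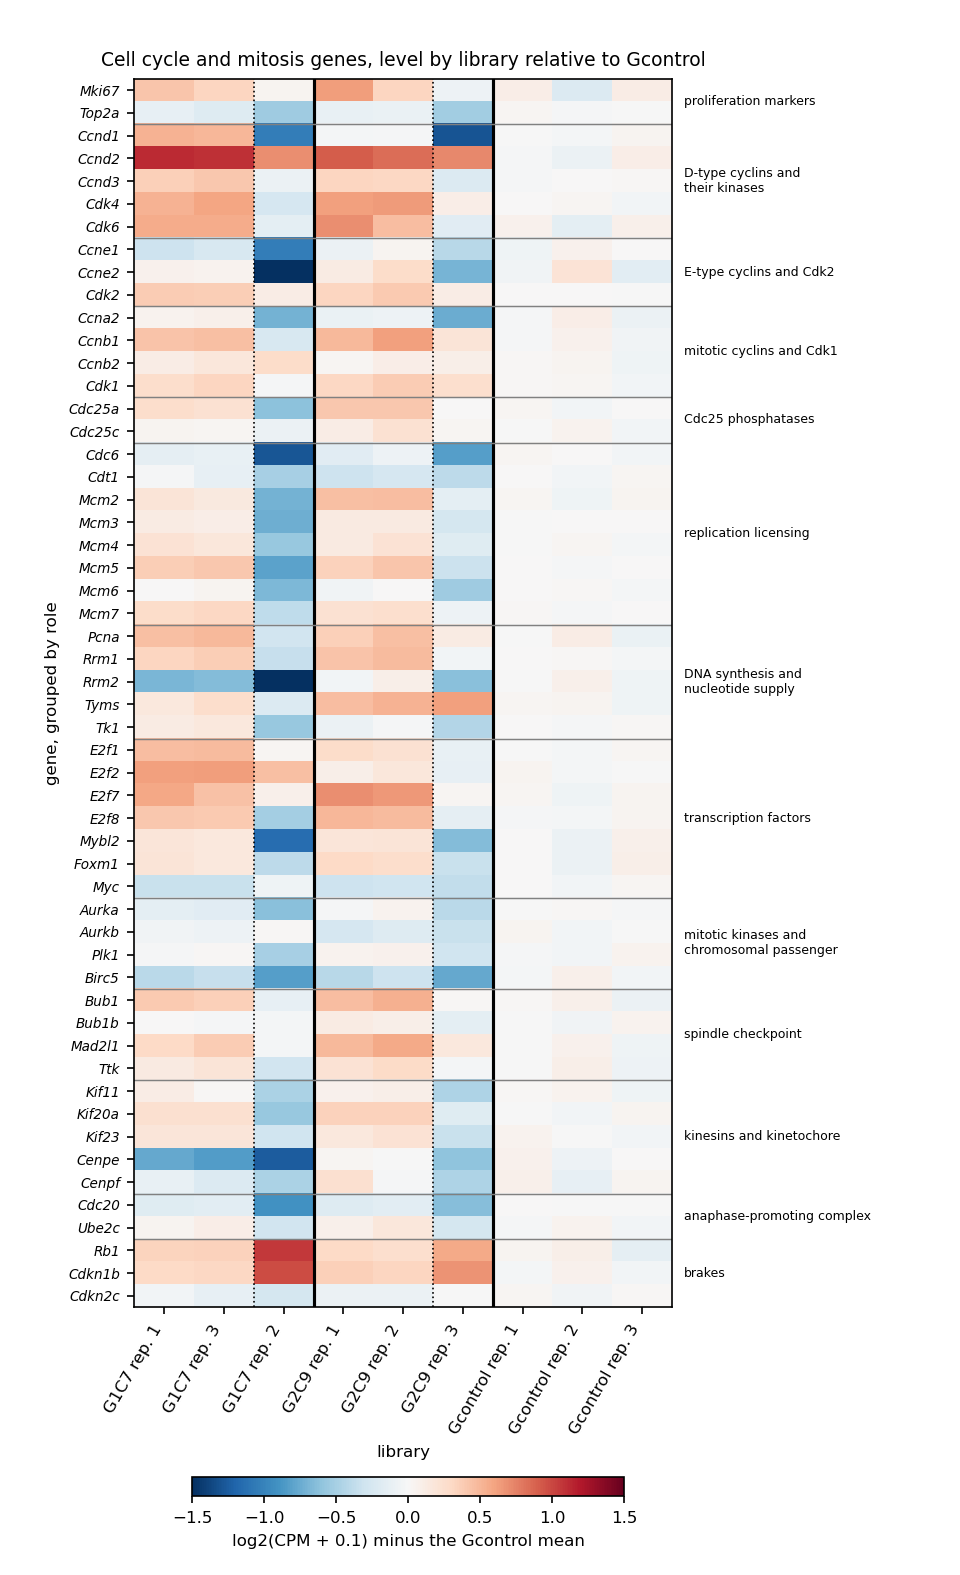
Rows are the 54 members by role and columns the 9 libraries; colour gives log2(CPM + 0.1) minus the mean of the 3 Gcontrol libraries, cut off at 1.5 on either side. G1C7 replicate 2 and G2C9 replicate 3, right of the dotted lines, are bluer than the other libraries of their group for most members and redder for Rb1 and Cdkn1b, and Ccnd2 is red in all 6 derivative libraries.

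The D-type cyclins and their kinases, which start the cycle in G1, were mostly higher in the derivatives when the libraries that stood apart were left out, with 5 of 5 called higher in G1C7 and 4 of 5 in G2C9. Ccnd2 (ENSMUSG00000000184.12, chromosome 6, 127125162 to 127152193, minus strand of GRCm38) stood at 158, 119 and 156 CPM in G1C7, 137, 131 and 121 CPM in G2C9, and 72.3, 68.9 and 78.3 CPM in Gcontrol. All 6 derivative libraries, those that stood apart included, were above all Gcontrol libraries. Its change was 0.98 ± 0.12 (adjusted p = 0.00145) in G1C7 and 0.82 ± 0.12 (adjusted p = 0.0035) in G2C9, and it was called in each of 15 alternative fits in both comparisons. Tested genes within 5 Mb of it had medians of 0.03 and 0.14. It was the only member of the group to pass with all 9 libraries.

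Cyclin D1 (Ccnd1) showed the most uneven pattern of the group. Its change was 0.16 ± 0.43 (adjusted p = 0.837) in G1C7 and -0.34 ± 0.43 (adjusted p = 0.679) in G2C9, with SEs larger than the changes. In the 7 libraries it was 0.52 (adjusted p = 2.4e-09) in G1C7 and -0.02 (adjusted p = 0.669) in G2C9: only the G1C7 replicates 1 and 3 were above Gcontrol, and the remaining G2C9 libraries lay within or just below its range. About 23.4% of its exon bases are shared with another annotated gene, where reads were dropped. Cdk4 stood at 705, 412 and 739 CPM in G1C7, 751, 762 and 526 CPM in G2C9, and 492, 502 and 478 CPM in Gcontrol. Cdk6 stood at 114, 70.2 and 114 CPM in G1C7, 126, 107 and 69.1 CPM in G2C9, and 81.3, 70.3 and 81.9 CPM in Gcontrol. Cdk4 was above Gcontrol in every derivative library but G1C7 replicate 2, and Cdk6 in all but the libraries that stood apart. Over the 7 libraries Cdk4 changed by 0.56 in G1C7 and 0.63 in G2C9, Cdk6 by 0.56 in G1C7 and 0.58 in G2C9, and all 4 of these were called higher. Cyclin D3 (Ccnd3) stood at 165, 121 and 171 CPM in G1C7, 162, 160.3 and 112 CPM in G2C9, and 127, 129 and 131 CPM in Gcontrol. In both derivatives the library that stood apart was below Gcontrol and the others above it; in the 7 libraries Ccnd3 rose by 0.38 in G1C7 and 0.32 in G2C9.

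The brakes Rb1 and Cdkn1b were higher in every derivative library than in any Gcontrol library. Rb1, whose product holds E2F factors in check, stood at 19.3, 32.0 and 19.4 CPM in G1C7, 18.9, 18.2 and 22.8 CPM in G2C9, and 15.8, 16.3 and 13.9 CPM in Gcontrol. Cdkn1b stood at 60.6, 97.1 and 61.2 CPM in G1C7, 63.2, 61.6 and 79.1 CPM in G2C9, and 48.6, 51.7 and 47.9 CPM in Gcontrol. For both genes the highest value of each derivative was in the library that stood apart. With all 9 libraries edgeR called neither, and DESeq2 called both in G1C7: Rb1 changed by 0.62 ± 0.20 (adjusted p = 0.071) in G1C7 and 0.38 ± 0.20 (adjusted p = 0.271) in G2C9, and Cdkn1b by 0.56 ± 0.19 (adjusted p = 0.0743) in G1C7 and 0.46 ± 0.19 (adjusted p = 0.152) in G2C9. Across these 7 libraries both rose, Rb1 by 0.34 (adjusted p = 0.00106) in G1C7 and 0.28 (adjusted p = 0.00563) in G2C9 and Cdkn1b by 0.30 (adjusted p = 5.19e-05) in G1C7 and 0.34 (adjusted p = 1.86e-05) in G2C9. Cdkn2c, which encodes p18, an inhibitor of CDK4 and CDK6, stood at 119.6, 102 and 113 CPM in G1C7, 116, 116 and 122 CPM in G2C9, and 126, 119 and 125 CPM in Gcontrol. Its values overlapped between groups and it was called in neither fit.

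Among the E2F factors, E2f2 rose in G1C7 with all 9 libraries, and E2f1, E2f7 and E2f8 rose in both derivatives in the 7 libraries. E2f2 (ENSMUSG00000018983.9, chromosome 4, 136172394 to 136196057, plus strand), an activator of replication genes, stood at 23.9, 21.2 and 24.1 CPM in G1C7, 16.5, 17.5 and 14.3 CPM in G2C9, and 15.9, 15.3 and 15.4 CPM in Gcontrol. The 3 G1C7 libraries were above all others, and the G2C9 and Gcontrol values overlapped. Its change was 0.57 ± 0.11 (adjusted p = 0.00848) in G1C7 and 0.05 ± 0.11 (adjusted p = 0.823) in G2C9, and in G1C7 it was called in each of the 15 alternative fits. E2f1, another activator, stood at 98.7, 73.3 and 100.1 CPM in G1C7, 87.0, 84.4 and 66.7 CPM in G2C9, and 71.6, 70.6 and 73.2 CPM in Gcontrol. It rose in the 7 libraries by 0.47 in G1C7 and 0.26 in G2C9. The repressors E2f7 and E2f8 act late in S phase. E2f7 stood at 96.0, 68.0 and 87.5 CPM in G1C7, 104, 101 and 65.5 CPM in G2C9, and 65.6, 61.2 and 66.1 CPM in Gcontrol. E2f8 stood at 72.1, 38.1 and 71.1 CPM in G1C7, 76.6, 75.4 and 49.5 CPM in G2C9, and 53.6, 53.2 and 55.9 CPM in Gcontrol. In all 3 genes the derivative libraries that did not stand apart were above Gcontrol; of the others, G2C9 replicate 3 was below Gcontrol or within its range in each, and G1C7 replicate 2 was below it in E2f8. In the fit of 7 libraries E2f7 rose by 0.51 in G1C7 and 0.67 in G2C9 and E2f8 by 0.40 in G1C7 and 0.49 in G2C9. With all 9 libraries, E2f1, E2f7 and E2f8 passed in neither derivative.

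Of the transcription factors, Myc fell in G2C9. Myc (ENSMUSG00000022346.16, chromosome 15, 61985391 to 61990374, plus strand) stood at 188, 228 and 189 CPM in G1C7, 192, 194 and 184 CPM in G2C9, and 239.8, 232 and 244 CPM in Gcontrol. All derivative libraries were below all Gcontrol libraries, and G1C7 replicate 2 was close to them. Its change was -0.24 ± 0.093 (adjusted p = 0.111) in G1C7 and -0.33 ± 0.093 (adjusted p = 0.04995) in G2C9, and it was called in G2C9 in 5 of 15 alternative fits; without Gcontrol replicate 1 its adjusted p was 0.162. In the 7 libraries it was called lower in both derivatives, at -0.34 (adjusted p = 1.4e-06) in G1C7 and -0.30 (adjusted p = 4.92e-06) in G2C9. Mybl2 and Foxm1, which drive mitotic genes, passed in neither derivative with all 9 libraries and rose in the 7 libraries, Mybl2 by 0.17 in G1C7 and 0.19 in G2C9 and Foxm1 by 0.17 in G1C7 and 0.28 in G2C9.

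The E-type cyclins and CDK2, which act at the entry to S phase, did not move together. Cyclin E1 (Ccne1) stood at 24.8, 14.9 and 26.1 CPM in G1C7, 28.9, 31.8 and 23.1 CPM in G2C9, and 29.4, 32.1 and 30.9 CPM in Gcontrol. All G1C7 libraries were below all Gcontrol libraries. Over the 7 libraries it changed in G1C7 by -0.27 (adjusted p = 0.00164) and changed by -0.02 in G2C9 without a call. Cdk2 stood at 128, 106 and 127 CPM in G1C7, 123, 129.6 and 107 CPM in G2C9, and 99.0, 98.4 and 97.7 CPM in Gcontrol, above Gcontrol in every derivative library. Its change was 0.29 ± 0.10 (adjusted p = 0.0905) in G1C7 and 0.28 ± 0.10 (adjusted p = 0.113) in G2C9, and in the 7 libraries 0.38 in G1C7 and 0.36 in G2C9, called higher in both. Ccne2, given above, was called in neither fit.

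Of the 8 replication licensing members, which form or load the MCM helicase at origins, none passed with all 9 libraries in edgeR or DESeq2, and 1 had an unadjusted p under 0.05 (Cdt1 in G2C9). Across these 7 libraries Mcm2, Mcm3, Mcm4, Mcm5 and Mcm7 rose in both derivatives. Among them Mcm5 changed by 0.39 in G1C7 and 0.38 in G2C9, and Mcm2 by 0.17 in G1C7 and 0.46 in G2C9. Mcm3, the most abundant per length, stood at 404, 222 and 398 CPM in G1C7, 406, 408 and 309 CPM in G2C9, and 369.5, 371 and 372 CPM in Gcontrol. The G1C7 replicates 1 and 3 and the G2C9 replicates 1 and 2 were above Gcontrol, and the libraries that stood apart were below it. Mcm6 was called in neither fit. Cdc6 stood at 79.8, 35.9 and 81.2 CPM in G1C7, 77.7, 83.1 and 49.4 CPM in G2C9, and 89.6, 87.9 and 85.2 CPM in Gcontrol. Cdt1, the partner of Cdc6 in loading, stood at 111, 79.8 and 103 CPM in G1C7, 90.6, 94.2 and 85.5 CPM in G2C9, and 113, 109.8 and 115 CPM in Gcontrol. Cdc6 was below Gcontrol in all 6 derivative libraries and Cdt1 in all but G1C7 replicate 1. In the fit of 7 libraries Cdc6 was called lower in both derivatives, at -0.12 (adjusted p = 0.0409) in G1C7 and -0.12 (adjusted p = 0.0389) in G2C9, and Cdt1 changed in G2C9 by -0.28 (adjusted p = 6.37e-05).

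Genes of DNA synthesis and nucleotide supply differed in direction. Tyms (ENSMUSG00000025747.12, chromosome 5, 30058202 to 30073617, minus strand), which makes thymidylate, stood at 138, 107 and 148 CPM in G1C7, 169.9, 177 and 189.5 CPM in G2C9, and 126, 128 and 118 CPM in Gcontrol. All G2C9 libraries were above all Gcontrol libraries, replicate 3 highest. Its change was 0.08 ± 0.12 (adjusted p = 0.683) in G1C7 and 0.53 ± 0.12 (adjusted p = 0.0217) in G2C9; in G2C9 it was called in 8 of 15 alternative fits, and without Gcontrol replicate 3 its adjusted p was 0.106. Rrm2, the most abundant of the 54 members per length in Gcontrol, stood at 304, 118 and 310.2 CPM in G1C7, 474, 517 and 315 CPM in G2C9, and 486, 514 and 465 CPM in Gcontrol. All G1C7 libraries were below all others, and G2C9 replicate 3 was close to G1C7 replicates 1 and 3. Its change was -1.002 ± 0.34 (adjusted p = 0.0768) in G1C7 and -0.17 ± 0.34 (adjusted p = 0.809) in G2C9. In the 7 libraries it was -0.67 (adjusted p = 2.01e-09) in G1C7 and 0.02 (adjusted p = 0.729) in G2C9. The clamp protein gene Pcna stood at 369.5, 220.2 and 378 CPM in G1C7, 344, 369 and 292 CPM in G2C9, and 267, 291 and 250.5 CPM in Gcontrol, and Rrm1, the large subunit of ribonucleotide reductase, at 582, 367 and 602 CPM in G1C7, 624, 647 and 454 CPM in G2C9, and 468, 472 and 456 CPM in Gcontrol. Both genes were above Gcontrol in the derivative libraries that did not stand apart; G1C7 replicate 2 was below it in both, and G2C9 replicate 3 in Rrm1. Over the 7 libraries Pcna rose by 0.47 in G1C7 and 0.40 in G2C9 and Rrm1 by 0.35 in G1C7 and 0.45 in G2C9. In the 7 libraries Tk1, thymidine kinase, was called higher in G1C7, by 0.14 (adjusted p = 0.00793), against -0.05 in G2C9. The difference between the derivatives in that fit had an adjusted p of 0.00438. With all 9 libraries its change was negative in both derivatives.

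**Figure D3:**
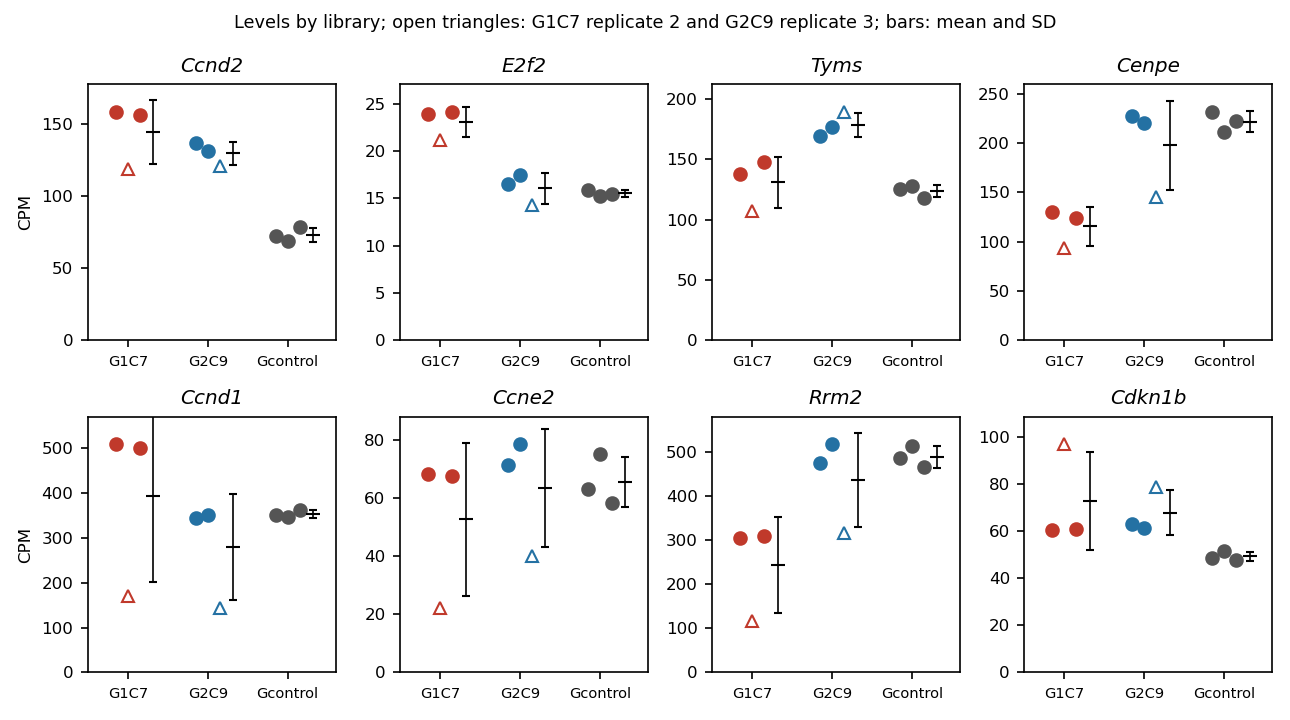
CPM of 8 members in each library, from 0, with the mean and SD of each group (n = 3) beside the points; open triangles are G1C7 replicate 2 and G2C9 replicate 3. Ccnd2 is above Gcontrol in all 6 derivative libraries, E2f2 and Cenpe differ in G1C7, and Ccnd1, Ccne2 and Rrm2 are lowest of their group in the triangles, where Cdkn1b is highest.

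Among mitotic cyclins and CDK1, the engine of mitosis, Ccnb1 and Cdk1 were called higher in both derivatives in the 7 libraries, and none passed with all 9 in edgeR (unadjusted p under 0.05 for 1 in G1C7 and 2 in G2C9). Cyclin B1 (Ccnb1) stood at 254, 159 and 258 CPM in G1C7, 265, 288 and 215 CPM in G2C9, and 187, 198 and 182 CPM in Gcontrol. Cdk1 stood at 366, 302 and 382 CPM in G1C7, 377, 397 and 363 CPM in G2C9, and 309, 311 and 296 CPM in Gcontrol. All G2C9 libraries were above Gcontrol in both genes, and of G1C7 replicate 2 alone was not. Across these 7 libraries Ccnb1 rose by 0.44 in G1C7 and 0.55 in G2C9 and Cdk1 by 0.30 in G1C7 and 0.34 in G2C9. Ccnb2 stood at 91.4, 102 and 95.3 CPM in G1C7, 86.0, 90.6 and 89.8 CPM in G2C9, and 85.6, 87.3 and 80.8 CPM in Gcontrol, and all G1C7 libraries were above all Gcontrol libraries. It was called in G1C7 in the 7 libraries, at 0.15 (adjusted p = 0.0168). Cyclin A2 (Ccna2), which spans S phase and G2, stood at 368, 218 and 374 CPM in G1C7, 331, 336 and 211 CPM in G2C9, and 352, 379 and 336 CPM in Gcontrol, and was called against Gcontrol in neither fit. Of the Cdc25 phosphatases, which activate the CDKs, Cdc25a stood at 69.8, 37.7 and 67.9 CPM in G1C7, 76.4, 76.7 and 58.0 CPM in G2C9, and 59.2, 56.4 and 58.0 CPM in Gcontrol, with G1C7 replicate 2 below Gcontrol, G2C9 replicate 3 within its range and the others above it. It rose in the 7 libraries by 0.25 in G1C7 and 0.41 in G2C9, and Cdc25c rose in G2C9 by 0.17 (adjusted p = 0.0195).

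Of the mitotic kinases and passenger proteins, which correct and guide chromosome attachment, Aurkb fell in G2C9, and Birc5 was called lower in both derivatives in the 7 libraries. Birc5 (survivin), which guides Aurora B to the centromere, stood at 139, 104 and 146 CPM in G1C7, 138, 149.6 and 109 CPM in G2C9, and 182, 194 and 179 CPM in Gcontrol. All derivative libraries were below all Gcontrol libraries. Its change was -0.51 ± 0.15 (adjusted p = 0.0527) in G1C7 and -0.48 ± 0.15 (adjusted p = 0.0743) in G2C9 with no call, and in the 7 libraries -0.37 (adjusted p = 3.82e-06) in G1C7 and -0.36 (adjusted p = 6.93e-06) in G2C9. Aurkb (ENSMUSG00000020897.12, chromosome 11, 69045647 to 69051664, plus strand), which encodes Aurora B, stood at 112, 117 and 110.5 CPM in G1C7, 97.3, 102 and 91.7 CPM in G2C9, and 119, 113 and 116 CPM in Gcontrol. Its change was -0.04 ± 0.074 (adjusted p = 0.773) in G1C7 and -0.26 ± 0.074 (adjusted p = 0.0488) in G2C9. In G2C9 it was called in 4 of 15 alternative fits, and without Gcontrol replicate 1 its adjusted p was 0.202. Aurka, the spindle pole kinase, stood at 109, 78.3 and 107 CPM in G1C7, 119, 125 and 91.2 CPM in G2C9, and 120.3, 122 and 119 CPM in Gcontrol, and was called lower in G1C7 in the 7 libraries, at -0.16 (adjusted p = 0.00503). Plk1, another mitotic kinase, stood at 149, 106 and 153 CPM in G1C7, 156, 157 and 122 CPM in G2C9, and 149.5, 147 and 157 CPM in Gcontrol, and was called in neither fit.

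Spindle checkpoint genes, which hold cells in mitosis until every chromosome is attached, were mostly higher in the 7 libraries. Mad2l1 stood at 145, 116 and 154 CPM in G1C7, 164, 174 and 131 CPM in G2C9, and 118, 123 and 113 CPM in Gcontrol. Bub1 stood at 122, 85.5 and 119.9 CPM in G1C7, 128, 135 and 94.7 CPM in G2C9, and 94.2, 98.3 and 87.6 CPM in Gcontrol. G1C7 replicate 2 overlapped or lay below Gcontrol in both genes and G2C9 replicate 3 overlapped it in Bub1, and the other derivative libraries were above it. In the fit of 7 libraries Mad2l1 rose by 0.34 in G1C7 and 0.52 in G2C9 and Bub1 by 0.38 in G1C7 and 0.50 in G2C9, and Ttk, another checkpoint kinase, by 0.16 in G1C7 and 0.25 in G2C9. Bub1b, the most abundant of the group per length, stood at 162, 158 and 159.6 CPM in G1C7, 176, 172 and 147 CPM in G2C9, and 161, 157 and 168 CPM in Gcontrol, and was called in neither fit. With all 9 libraries none of the 4 passed in edgeR, and DESeq2 called 1 higher in G2C9, where 1 had an unadjusted p under 0.05.

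Cenpe, a kinesin that carries chromosomes to the spindle equator, had the largest fall that passed. Cenpe (ENSMUSG00000045328.11, chromosome 3, 135212537 to 135273611, plus strand) stood at 129.9, 93.2 and 124 CPM in G1C7, 227, 220.5 and 145 CPM in G2C9, and 232, 211 and 223 CPM in Gcontrol. All G1C7 libraries were below all others, and G2C9 replicates 1 and 2 lay within the Gcontrol range. Its change was -0.94 ± 0.19 (adjusted p = 0.0103) in G1C7 and -0.17 ± 0.18 (adjusted p = 0.62) in G2C9. In G1C7 it was called in 14 of 15 alternative fits; without Gcontrol replicate 1 its adjusted p was 0.0502. Tested genes within 5 Mb of it had a median of -0.46 in G1C7 and -0.01 in G2C9. Of the other kinesin and kinetochore members, Kif20a and Kif23, which act in cytokinesis, rose in the 7 libraries, Kif20a by 0.25 in G1C7 and 0.35 in G2C9 and Kif23 by 0.18 in G1C7 and 0.19 in G2C9. Kif20a stood at 187, 106 and 187 CPM in G1C7, 200.5, 202 and 139 CPM in G2C9, and 158, 154 and 163 CPM in Gcontrol; about 29.3% of its exon bases are shared with Cdc23, where reads were dropped. Kif11, the motor that separates spindle poles, and Cenpf, a kinetochore protein, were called in neither fit.

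Cdc20, an activator of the anaphase-promoting complex, the ubiquitin ligase that ends mitosis, stood at 212, 128 and 215 CPM in G1C7, 210.1, 215 and 154 CPM in G2C9, and 242, 239.8 and 239 CPM in Gcontrol. All derivative libraries were below all Gcontrol libraries. In the 7 libraries it was called lower in both derivatives, at -0.17 (adjusted p = 0.00123) in G1C7 and -0.17 (adjusted p = 0.000978) in G2C9. Its partner enzyme Ube2c rose there in G2C9, by 0.12 (adjusted p = 0.0322), and changed by 0.07 in G1C7 with no call. The proliferation marker Mki67 stood at 666, 516 and 624 CPM in G1C7, 769.8, 624 and 475 CPM in G2C9, and 536, 435 and 539 CPM in Gcontrol, and the decatenating enzyme Top2a at 797, 599.5 and 762 CPM in G1C7, 803, 809.9 and 602 CPM in G2C9, and 884, 856 and 864 CPM in Gcontrol. Mki67 overlapped between groups and was called higher only in G2C9 in the 7 libraries (0.47, adjusted p = 0.0434; 0.36 and 0.0916 in G1C7). Top2a was below Gcontrol in every derivative library, and changed in the 7 libraries by -0.15 (adjusted p = 0.00171) in G1C7 and -0.11 (adjusted p = 0.0221) in G2C9.

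Between the derivatives, E2f2 was the only member called with all 9 libraries, higher in G1C7 by 0.52 ± 0.11 (adjusted p = 0.0369); 1.71% of all tested genes were called higher and 1.65% lower. None of 54 members was called lower in edgeR; 3 had an unadjusted p under 0.05 in that direction, and DESeq2 called 2. The call held in 5 of the 15 alternative fits, and without G1C7 replicate 3 its adjusted p was 0.141; of the fits that left out 1 library, it was called only without G1C7 replicate 2. Libraries of the derivatives did not overlap in 6 members (18.2% of all genes). Over the 7 libraries 8 members were higher and 9 lower in G1C7 than in G2C9, where 14.8% and 12.5% of all genes were called. Higher in G1C7 was Ccnd1, by 0.54 (adjusted p = 2.13e-08). Lower in G1C7 were Cenpe, at -0.82 (adjusted p = 1.07e-09), Rrm2, at -0.69 (adjusted p = 1.36e-08), Mcm2, at -0.29, and Tyms, at -0.28. With all 9 libraries these changes had adjusted p-values of 0.706 for Ccnd1, 0.0638 for Cenpe, 0.28 for Rrm2, 0.604 for Mcm2 and 0.0975 for Tyms.

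Several members whose changes had the same sign share a chromosome on which the median of all tested genes had that sign. The 4 members on chromosome 10, Cdk4, Cdk2, Cdk1 and E2f7, all had positive changes in both derivatives with all 9 libraries and were all called higher in the 7 libraries. The median of the 771 tested genes of that chromosome was 0.28 in G1C7 and 0.27 in G2C9. Changes above 0 were found in 77.3% of them in G1C7 and 78.3% in G2C9. The 5 members on chromosome 11, Top2a, Cdc6, Tk1, Aurkb and Birc5, all had negative changes in both with all 9 libraries. The median of its 1232 tested genes was -0.20 in G1C7 and -0.28 in G2C9, and 30.11% and 21.75% of them were above 0. With the 7 libraries 3 of these 5 were called lower and Tk1 higher (0.14, adjusted p = 0.00793) in G1C7, and 4 were called lower in G2C9. Cenpe lies on chromosome 3, where the median of 839 genes was -0.33 in G1C7 and -0.08 in G2C9, and Myc on chromosome 15, where it was -0.16 and -0.14. Ccnb1 lies on chromosome 13, with 0.20 and 0.20, and Ccnd3 on chromosome 17, with 0.41 and 0.12. Tested genes within 5 Mb of Rrm2, on chromosome 12, had a median of -0.53 in G1C7 and -0.07 in G2C9. Of the members that rose with all 9 libraries, Ccnd2 lies on chromosome 6, with medians of 0.01 in G1C7 and 0.15 in G2C9, E2f2 on chromosome 4, with -0.15 and -0.13, and Tyms on chromosome 5, with -0.01 and 0.05. Elsewhere, with all 9 libraries, signs agreed on some chromosomes and were mixed on others. All 4 members on chromosome 9 had positive changes in both derivatives, with medians of 0.15 in G1C7 and 0.12 in G2C9. All 3 members on chromosome 5 did too. On chromosome 6, 4 of 5 did in G1C7 and 5 of 5 in G2C9. On chromosome 1, with medians of -0.12 and -0.11, 0 of 3 did in G1C7 and 1 of 3 in G2C9. On chromosome 8, with medians of 0.17 in G1C7 and 0.16 in G2C9, 1 of 2 members had a positive change in each derivative. On chromosome 2, with 0.10 in each, 3 of 7 did in G1C7 and 5 of 7 in G2C9. On chromosome 7, with 0.18 and 0.12, 4 of 6 did in G1C7 and 3 of 6 in G2C9. The part of the chromosome in any member's change was not tested.

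**Figure D4:**
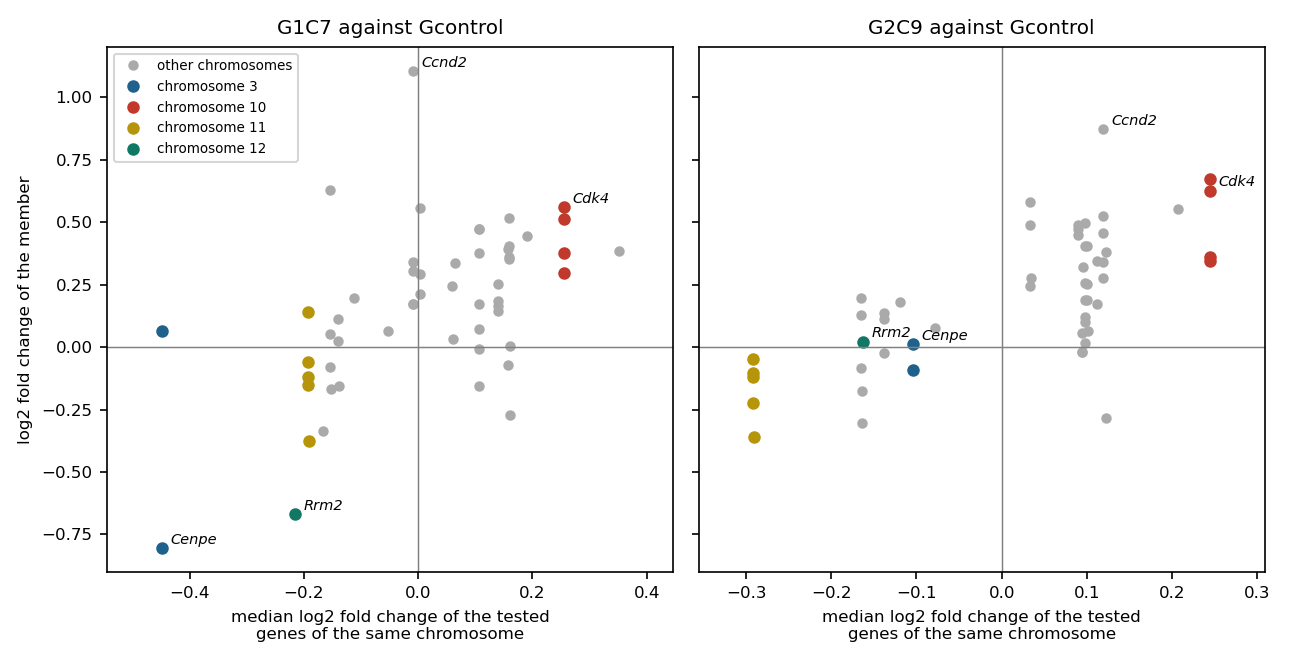
Each point is a member; the horizontal axis gives the median log2 fold change of the tested genes of its chromosome and the vertical axis its own, for G1C7 (left) and G2C9 (right) against Gcontrol in the 7 libraries without G1C7 replicate 2 and G2C9 replicate 3. The 4 members of chromosome 10 lie at the upper right in both panels, those of chromosome 11 lie left of 0, and Ccnd2 lies high at a median near 0 in G1C7.

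A wider set of 144 cell cycle genes in 8 lists, none of them members, gave 15 higher and 8 lower calls in G1C7 and 12 higher and 2 lower in G2C9 with all 9 libraries, where 8.77% of all genes were called higher and 8.73% lower in G1C7, and 6.25% and 7.22% in G2C9. Its median change was 0.03 in G1C7 and 0.06 in G2C9. In the 7 libraries 73 were higher and 20 lower in G1C7 (26.4% and 27.9% of all genes), and 73 and 18 in G2C9 (25.4% and 27.6%), with medians of 0.15 and 0.13. Counts and values below are from all 9 libraries unless the 7 libraries are named. CDK inhibitors and pocket proteins had 4 of 13 higher in G1C7, led by Cdkn1c (p57, 1.55 ± 0.37, adjusted p = 0.0234) and E2f4, the repressor E2F that pairs with the pocket proteins (0.72, adjusted p = 0.00546). In G2C9, 3 of 13 were higher, led by E2f4 (0.75, adjusted p = 0.00556) and Cdkn2d (p19, 0.51); none was lower in either. The list's median was 0.31 in G1C7 and 0.21 in G2C9, and in the 7 libraries 7 were higher and 1 lower in G1C7 and 5 and 3 in G2C9. Of 35 genes of origin recognition, firing and the fork, Orc6, a subunit of the origin complex, was the only call, with -0.77 in G1C7 and -0.62 in G2C9; the medians were 0.10 and 0.03. With the 7 libraries 23 of the 35 were higher and 3 lower in G1C7, and 16 higher and 3 lower in G2C9. No checkpoint or Wee1 kinase of 10 was called in either derivative by edgeR or DESeq2 with all 9 libraries, none had an unadjusted p under 0.05, and 5 of 10 were called higher and none lower in each derivative by edgeR in the 7 libraries. With all 9 the most abundant of them, Clspn and Cdc25b, changed by -0.26 and 0.17 in G1C7 and by -0.06 and -0.06 in G2C9.

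Of 20 centromere and kinetochore genes, 4 were higher and 2 lower in G1C7, and 4 higher and 1 lower in G2C9; in the 7 libraries there were 7 and 4 in G1C7 and 9 and 2 in G2C9. The highest were Cenpk (0.87 in G1C7 and 0.88 in G2C9) and Cenpw (0.65 and 0.58), subunits of the inner kinetochore. The lowest was Cenpn (-0.82 and -0.89), which reads the CENP-A nucleosome, and in G1C7 then Ska1 (-0.29), which couples kinetochores to microtubules. Of 28 spindle and cytokinesis genes, 2 were higher in G1C7, Kifc1 (0.30) and Kif22 (0.26), and 3 lower, the lowest being Kif18b (-0.55) and Bora (-0.53). None of the 28 was called in G2C9 by edgeR, where 7 had an unadjusted p under 0.05 and DESeq2 called 3. With the 7 libraries 12 of the 28 were higher and 6 lower in G1C7, and 16 higher and 6 lower in G2C9. With all 9 the most abundant in G2C9, Racgap1 and Anln, changed by -0.22 and 0.31. Of 12 cohesin and condensin genes, Ncapd3 was higher in both (0.35 in G1C7 and 0.45 in G2C9), and in the 7 libraries 7 were higher in G1C7 and 8 in G2C9, none lower. Of 14 genes of the anaphase-promoting complex, Anapc10 (0.53 and 0.72) and Cdc16 (0.34 and 0.34) were higher in both, and Cdc26 (-0.35) was lower in G1C7; the 7 libraries gave 7 higher and 2 lower in G1C7 and 8 and 2 in G2C9. Of 12 partners of MYC and related growth genes, Ccnh (0.61 and 0.52) and Cdk7 (0.43 and 0.53), which form the CDK-activating kinase, were higher in both, and Cks1b (-0.59) was lower in G1C7; the 7 libraries gave 5 higher and 4 lower in G1C7 and 6 and 2 in G2C9. List medians lay between -0.03 and 0.04 in G1C7 and between 0.03 and 0.17 in G2C9 for these 5 lists. Between the derivatives, Ska1 was the only call among the 144, at -0.41 ± 0.083 (adjusted p = 0.0341).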

How the data were processed

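RNA of 9 libraries was measured by stranded polyA sequencing, per the labels' protocols. The authors deposited raw counts per gene; featureCounts 1.6.0 and GENCODE vM25 (GRCm38) are named per the file headers, and STAR 2.6.1c per the submitters' processing notes. Between 74.1% and 75.6% of low nonzero counts were even, so mates were mostly counted separately and reads are not independent fragments. Reads over bases shared by 2 genes were dropped, which touches 20 members. Counts were scaled with TMM, filtered with filterByExpr (15659 genes kept) and tested with edgeR 4.0.16 (quasi-likelihood, robust, 1 factor for group over all 9 libraries, R 4.3.3) with Benjamini-Hochberg adjustment over all genes kept; a call is an adjusted p under 0.05. In simulated counts for G1C7 against Gcontrol over 15271 genes, edgeR found 51 of 100 2-fold and 73 of 100 4-fold changes, with 8 of 132 calls false. Alternatives were RLE scaling, DESeq2 1.42.0, limma-voom 3.58.1, no filter, a replicate block, each library left out, and both libraries that stood apart left out. The members and lists were chosen with earlier results of these data known. Values per library are printed for part of the members called in some comparison, taken by the smallest adjusted p with all 9 libraries. They are also printed for the most abundant per length of each role group, the D-type cyclins, E2F factors, Myc and the brakes. Others are given by range, count or change. The limit of 20% below both other libraries and its alternatives were chosen after seeing the data.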

Additional observations from a re-analysis of the deposited data

Results flagged for a closer look

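In the test of G1C7 against G2C9 itself, E2f2 differed by 0.52 on the log2 scale (adjusted p = 0.0369, edgeR), with all 3 G1C7 libraries above all 3 G2C9 libraries. In the same test Ska1 differed by -0.41 (adjusted p = 0.0341).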

How the results depend on the processing

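Members called are given against counts with all 9 libraries of 2 higher and 1 lower in G1C7, 2 and 2 in G2C9, and 1 and 0 in G1C7 against G2C9. DESeq2 gave 4 higher and 4 lower in G1C7, 4 higher in G2C9, and 2 higher and 2 lower between the derivatives. Over all genes DESeq2 called 3862, 3190 and 1267 in these comparisons, against 2740, 2109 and 526 with edgeR. With limma-voom 2 were lower in G1C7 and 1 lower in G2C9. With no filter on low counts 0 were lower in G2C9 and 0 higher between the derivatives. Without both libraries that stood apart the counts were 32 higher and 9 lower in G1C7, 31 and 7 in G2C9, and 8 and 9 between the derivatives. Leaving out 1 library at a time, the higher and lower counts ranged from 2 to 8 and from 0 to 3 in G1C7, from 1 to 9 and from 0 to 4 in G2C9, and from 0 to 1 and from 0 to 1 between the derivatives. Calls over all genes in those fits ranged from 1181 to 4133, from 878 to 4113 and from 186 to 1286 in the same order. With the replicate block 1 was higher and 0 lower in G2C9 and 0 higher between the derivatives. Same-numbered libraries did not deviate together in every pair. The highest correlation of deviations, 0.68, was between G1C7 replicate 2 and G2C9 replicate 3, which carry different numbers. Because these libraries weigh on the deviations, this check could not show whether the numbers pair the libraries. Members below both other libraries of the group by 1.5-fold numbered 23 in G1C7 replicate 2 and 13 in G2C9 replicate 3, against 41 and 35 at the 20% limit, and with 1 of the other libraries left out the counts ranged from 42 to 43 and from 35 to 40. Scaled by library totals alone, without TMM, 35 and 28 members passed the 20% limit, and 41 and 36 did with RLE scaling. No member changed sign in a comparison that called it with all 9 libraries. The median member did: in G1C7 against Gcontrol it was 0.01 with all 9 libraries, -0.001 with RLE scaling and DESeq2, -0.016 with limma-voom, -0.006 with the replicate block, and between -0.07 and 0.17 with 1 library left out, and between the derivatives it was -0.09 with all 9 libraries and between -0.21 and 0.08 with 1 left out. The cause of these shifts was not tested.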

Other observations

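Of 144 cell cycle genes outside the 54 members, 71 lay at least 20% below both other libraries of the group in G1C7 replicate 2 and 10 at least 25% above both. In G2C9 replicate 3, 62 lay below and 6 above. Over all tested genes 26.1% lay below and 30.3% above in G1C7 replicate 2, and 19.0% and 26.3% in G2C9 replicate 3; no test was made. Of 35 genes of origin recognition, firing and the fork, 24 were that low in G1C7 replicate 2 and 17 in G2C9 replicate 3, with median log2 differences of -0.52 and -0.33. Of 10 checkpoint and Wee1 kinases, 8 and 6 were (medians -0.50 and -0.45), and of 28 spindle and cytokinesis genes 14 and 15 (medians -0.36 and -0.37). Of 20 centromere and kinetochore genes 5 and 7 were (medians -0.20 and -0.27), of 12 cohesin and condensin genes 6 and 8 (medians -0.32 and -0.38), and of 14 genes of the anaphase-promoting complex 5 and 3 (medians -0.31 and -0.16). Of 12 partners of MYC and related growth genes 5 were lower and 3 higher in G1C7 replicate 2, and 3 lower and 2 higher in G2C9 replicate 3 (medians -0.14 and -0.04). The 13 CDK inhibitors and pocket proteins were mixed, with 4 lower and 5 higher in G1C7 replicate 2 and 3 lower and 3 higher in G2C9 replicate 3 (medians 0.27 and 0.03). Sox2, a neural stem cell factor, stood at 21.3 CPM in G1C7 replicate 2 and 23.2 CPM in G2C9 replicate 3, and between 40.1 and 69.8 CPM in the other 7 libraries.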
